A study of Mus musculus with 12 samples.

Results

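The 9 genes described here encode receptors of the TNF receptor superfamily that T cells carry: Tnfrsf4 (OX40), Tnfrsf9 (CD137), Tnfrsf18 (GITR), Tnfrsf8 (CD30), Cd27, Tnfrsf25 (DR3), Tnfrsf1a and Tnfrsf1b (the receptors of TNF) and Fas. They were taken as a list of gene names, with every probe that carries one of those names, from the 27597 genes on the array, of which 17925 were bright enough to be tested. All 9 were tested, through 13 probes: Tnfrsf9, Tnfrsf1b, Tnfrsf25 and Fas had 2 probes each and the others 1.

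The study set Th9 cells, helper T cells that secrete IL-9, beside Th2 and regulatory T (Treg) cells, all grown from naive CD4+CD62L+ T cells of C57BL/6 mice. Magnetic selection from spleens and lymph nodes gave the cells, which were activated with plate-bound anti-CD3 and soluble anti-CD28, and were kept for 5 days with an expansion on day 3. Each of 4 groups had 3 one-colour Agilent arrays, 12 in all. Th2 cultures had IL-4 (20 ng/ml) with anti-IFN-γ. Th9 cultures had IL-4 (20 ng/ml), TGF-β (2 ng/ml) and anti-IFN-γ, and were given IL-4 and TGF-β again at expansion. Treg cultures had TGF-β (2 ng/ml) with anti-IL-4, and IL-2 at expansion. The stimulated Th9 group was the Th9 culture with anti-CD3 (1 µg/ml) for 6 h on day 5, while the other 3 groups were not stimulated again. So all groups shared the first activation through CD3 and CD28, which itself acts on several of these receptors, and no naive or unactivated cells were analysed here. Nothing in the labels ties an array to a culture or an animal of its own. The p-values below therefore measure the spread among these samples, which may be technical.

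Costimulatory receptors of this family sit on activated T cells and are engaged by ligands on antigen-presenting cells or on other T cells. Trimeric ligands cluster the receptors, whose tails recruit TRAF adaptors and switch on NF-κB and survival genes. Fas, Tnfrsf1a and Tnfrsf25 also carry a death domain in the tail, through which they can start caspase-dependent death. GITR and OX40 are known for high expression on regulatory T cells in the mouse, CD27 for expression on naive and memory T cells, and CD30 for expression on activated cells.

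The promoters of 4 members are printed, all with their lowest group mean in Treg cells. They parted only after stimulation, when Tnfrsf4 rose while its neighbour Tnfrsf18 fell, as did Tnfrsf9 and Tnfrsf8. Each run holds the 250 bases before the transcription start in RefSeq (GRCm38.p6), 5′ to 3′ on the strand of the gene. All 9 members matched that table, with 11 promoters. Capitals mark matches, on either strand, to the NF-κB word (GGG, any 2 bases, TTTCC) and to the AP-1 word TGANTCA. Of the 2 Tnfrsf9 starts the one with matches is shown.
Tnfrsf9, chr4:150927749-150927998, plus strand: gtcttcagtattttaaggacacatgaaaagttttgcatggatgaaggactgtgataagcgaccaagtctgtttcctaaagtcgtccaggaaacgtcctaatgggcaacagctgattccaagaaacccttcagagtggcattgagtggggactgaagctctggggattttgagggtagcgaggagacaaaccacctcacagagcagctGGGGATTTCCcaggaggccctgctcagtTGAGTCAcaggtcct
Tnfrsf8, chr4:145315165-145315414, minus strand: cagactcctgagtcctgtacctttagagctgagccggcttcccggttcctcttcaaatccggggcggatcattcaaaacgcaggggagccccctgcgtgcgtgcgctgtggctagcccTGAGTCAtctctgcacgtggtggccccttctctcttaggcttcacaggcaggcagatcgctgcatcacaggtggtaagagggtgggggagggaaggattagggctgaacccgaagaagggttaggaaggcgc
Tnfrsf4, chr4:156013445-156013694, plus strand: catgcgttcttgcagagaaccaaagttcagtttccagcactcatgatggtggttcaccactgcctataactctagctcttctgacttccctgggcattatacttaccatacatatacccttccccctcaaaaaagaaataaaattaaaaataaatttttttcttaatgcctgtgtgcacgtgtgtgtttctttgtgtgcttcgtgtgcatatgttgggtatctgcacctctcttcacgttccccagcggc
Tnfrsf18, chr4:156026072-156026321, plus strand: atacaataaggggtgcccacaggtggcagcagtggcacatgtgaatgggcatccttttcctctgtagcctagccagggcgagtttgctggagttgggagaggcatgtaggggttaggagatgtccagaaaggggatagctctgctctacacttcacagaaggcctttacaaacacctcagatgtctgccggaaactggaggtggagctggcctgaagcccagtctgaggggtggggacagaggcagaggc
In the Tnfrsf9 window the NF-κB word lay 43 to 34 bases and the AP-1 word 15 to 9 bases before the start. The AP-1 word lay 132 to 126 bases before the start of Tnfrsf8 and 211 to 205 bases before that of Fas. An NF-κB word on the opposite strand lay 218 to 209 bases before the start of Tnfrsf25. The NF-κB word was found in 1.41% and the AP-1 word in 6.75% of the 32851 RefSeq promoters cut to this length. The stricter NF-κB words with A, or with AC, in place of the 2 free bases were in 0.356% and 0.14% of promoters and in none of the 11. These are matches of letters. The windows of Tnfrsf4 and Tnfrsf18 held neither word, which says only that these letters are not there.

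The 2 probes of Fas and of Tnfrsf1b gave different patterns, as described further on, and the first 30 of the 60 bases of each are printed to tell them apart. The array pairs the first Fas probe with the RefSeq transcript of Fas and the other with a cDNA clone. Both Tnfrsf1b probes carry the same RefSeq accession.
Fas, RefSeq probe: caactcctggtgtgttctctttgccagcaa
Fas, cDNA clone probe: ggagagactctttaaaatgaaaacacaata
Tnfrsf1b, brighter probe: gcaattgcactgtgtgctggacagaattcc
Tnfrsf1b, dimmer probe: ctggtgaactgcttcatcctggtgcagagg

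A level is the log2 signal of a gene's brighter probe minus the 75th percentile of its array, and a difference is a limma log2 difference ± standard error between means of 3 arrays. The 75th percentile signal was 521 to 796 and 59.8 to 63.7% of probes were well above background. The number of arrays limits the precision. No probe was saturated. Arrays of a group correlated at 0.988 to 0.995 over genes. Il9 was well above background on all Th9 and stimulated Th9 arrays and on none of the Th2 and Treg arrays. Foxp3 was highest in Treg cells, above background on all Th9 and stimulated Th9 arrays and not in Th2 cells. The 4 Th2 markers (Il4, Il5, Il13 and Gata3) were all higher in Th9 and Th2 cells than in Treg cells. Between Th9 and Th2 cells only Il13 was called, lower in Th9 cells. Their summed level was 60.6 to 65.2 in Th2, 45.4 to 58.0 in Th9 and 228 to 473 in stimulated Th9 cells. All 9 B cell markers were also measured on every Treg array, where their summed level was 57.0 to 78.1. It was 5.31 to 7.04 in Th9, 2.62 to 4.53 in Th2 and 0.77 to 2.62 in stimulated Th9 cells. The part of B cell transcripts in the differences from Treg cells given below, for receptors and related genes alike, was not tested. Markers of CD8 T cells and NK cells were measured in every group. Their summed level was 15.0 to 19.5 in Th2, 23.2 to 30.5 in Th9 and 23.6 to 43.6 in Treg cells. Their part in the receptor levels was not tested. Stimulated Th9 array 3 stood apart from arrays 1 and 2 of its group. Its summed CD8 T cell and NK cell markers were at 2.91, against 16.9 and 16.2, and its summed myeloid markers at 3.69, against 0.61 and 0.62. Most of that myeloid sum was Fcgr3, with a log2 level of 1.43 against -4.27 and -4.42. The myeloid markers Lyz2 and Itgam were above background only on Treg arrays. Stimulated array 3 also lay on another slide. Slide 1 held the Th2 arrays and Treg array 1, slide 2 the other Treg arrays and stimulated arrays 1 and 2, and slide 3 the Th9 arrays and stimulated array 3. No slide held Th9 together with Th2 or Treg arrays. In whole cultures, fewer cells with a transcript and less of it per cell cannot be told apart.

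Between Th9 and Treg cells the receptors split evenly. Tnfrsf4, Tnfrsf9, Tnfrsf18 and Tnfrsf8 were higher in Th9 cells, and Tnfrsf25, Cd27, Fas and Tnfrsf1a were lower. With an adjusted p under 0.05 as the call, that is 4 higher and 4 lower of 9, while 28.8% of all genes tested were higher, 35.3% lower and 64.0% called in all. Th2 cells differed from Treg cells in all 9 receptors, 5 higher and 4 lower, where 62.7% of all genes were called, 29.3% higher and 33.5% lower. These comparisons share the Treg arrays, so their likeness is no separate observation. Between Th9 and Th2 cells 1 receptor was higher (Fas) and 1 lower (Tnfrsf1b), where 17.0% of all genes were called, 7.76% higher and 9.25% lower. After stimulation of Th9 cells 1 rose (Tnfrsf4) and 4 fell (Tnfrsf9, Tnfrsf18, Tnfrsf8 and Tnfrsf1a), where 63.7% of all genes were called, 33.2% higher and 30.5% lower. Without stimulated array 3, Cd27 joined those that rose. The median difference over the 9 receptors was 0.23 for Th9 minus Treg, 0.88 for Th2 minus Treg, -0.09 for Th9 minus Th2 and -0.30 after stimulation. Over all genes tested the medians were -0.11, -0.08, -0.03 and 0.02 in the same order.

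**Figure D1:**
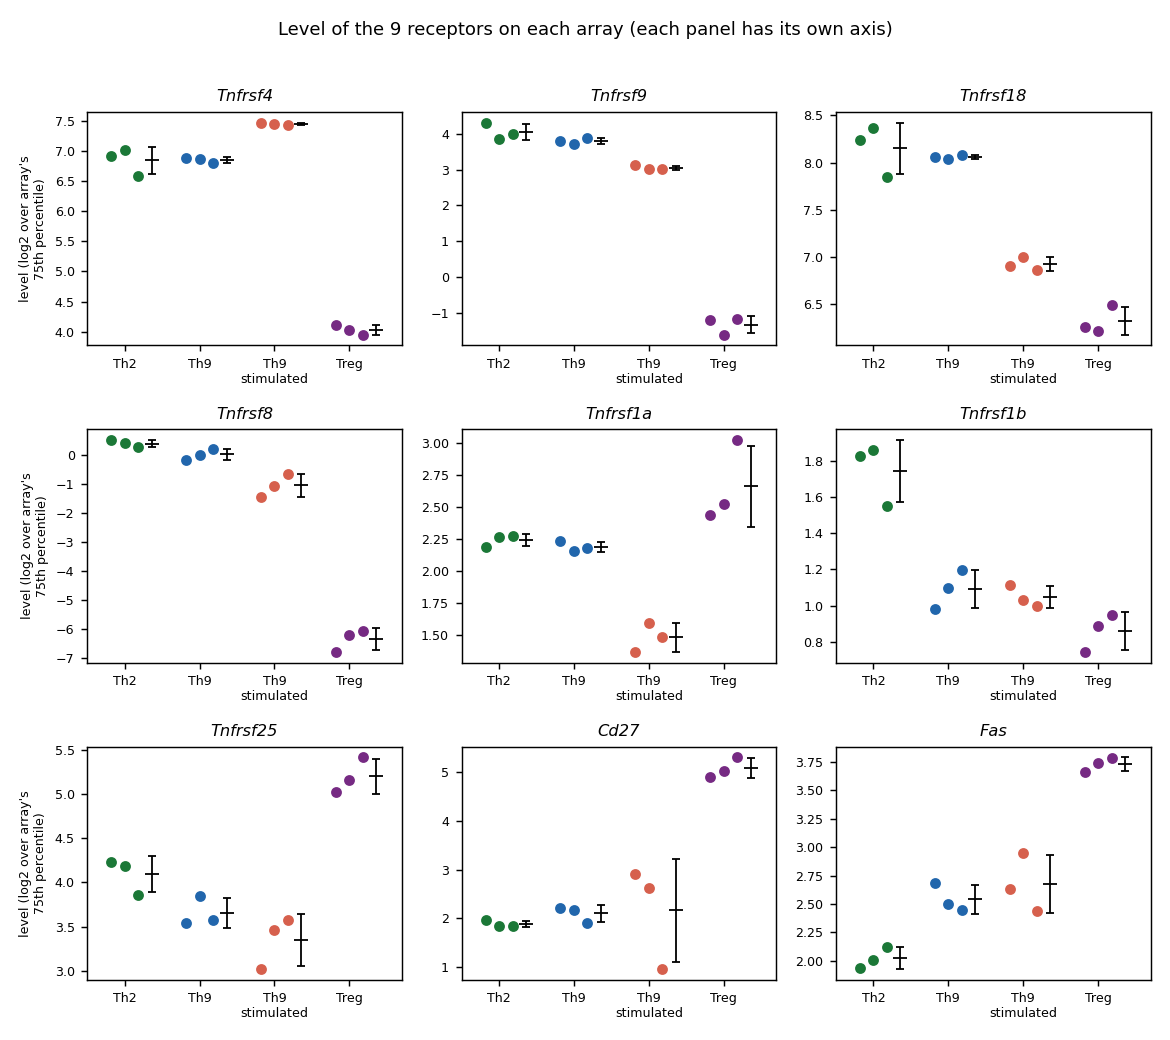
Level of each receptor (log2 signal minus the array's 75th percentile) on the 12 arrays, by group. Points are arrays 1, 2 and 3 from left to right, the bar beside them is the mean ± SD, and each panel has its own axis. Tnfrsf4, Tnfrsf9, Tnfrsf18 and Tnfrsf8 are lowest in Treg cells, while Tnfrsf25, Cd27 and Fas are highest there. Stimulated array 3 is the lowest Cd27 point, at 0.96.

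**Figure D2:**
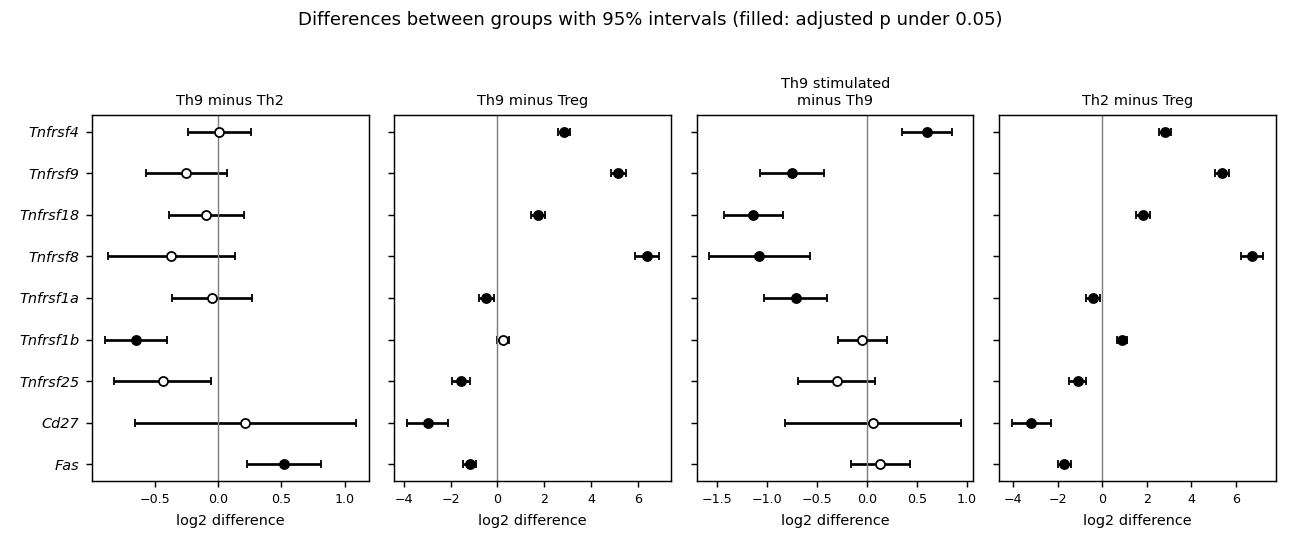
Log2 differences (horizontal axis) of the 9 receptors in 4 comparisons with 95% limma intervals, on a separate scale in each panel. Filled points have an adjusted p under 0.05. The Th9 minus Treg panel has 4 filled points on either side of 0. The points of Tnfrsf8 against Treg cells rest on a Treg signal not above background.

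Tnfrsf4, which encodes OX40, was higher in Th2 and Th9 cells than in Treg cells. In Treg cells it was still bright and well above background on every array, with linear signals of 9405, 9343 and 8472. Its level was 6.92, 7.01 and 6.59 on the Th2 arrays and 6.88, 6.87 and 6.79 on the Th9 arrays. It was 7.46, 7.45 and 7.44 after stimulation and 4.11, 4.02 and 3.95 in Treg cells. The Treg arrays lay far below all others, the Th2 and Th9 arrays overlapped, and each stimulated array was above every other array. The difference between Th9 and Treg cells was 2.82 ± 0.11, or 7.08-fold (adjusted p = 1.75e-08), and that between Th2 and Treg cells 2.82 ± 0.11 (adjusted p = 1.91e-08). Stimulation raised it by 0.60 ± 0.11, or 1.52-fold (adjusted p = 0.000771). Between Th9 and Th2 cells the difference was 0.01 ± 0.11, with a 95% interval of -0.24 to 0.26 (adjusted p = 0.972).

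Tnfrsf9 encodes CD137, a receptor that T cells gain on activation. Its level was 4.31, 3.86 and 3.99 in Th2 cells and 3.81, 3.72 and 3.88 in Th9 cells. After stimulation it was 3.13, 3.01 and 3.03, and in Treg cells -1.22, -1.62 and -1.18. The stimulated arrays were all below the unstimulated Th9 arrays, and the Treg arrays were below everything else. Th9 cells exceeded Treg cells by 5.14 ± 0.15, or 35.3-fold (adjusted p = 2.47e-09), and Th2 cells exceeded them by 5.39 ± 0.15, or 42.0-fold (adjusted p = 2.03e-09). Stimulation lowered the level: the difference was -0.75 ± 0.15 (adjusted p = 0.000925). The second probe went the same ways, with 4.71 ± 0.20 for Th9 minus Treg and -1.59 ± 0.20 after stimulation. The Th9 and Th2 groups overlapped, with a difference of -0.25 ± 0.15 (adjusted p = 0.267; 95% interval -0.57 to 0.07). On the second probe that difference had the other sign, at 0.18 ± 0.20 (adjusted p over probes = 0.59).

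Tnfrsf18, the gene of GITR, lies next to Tnfrsf4 with no protein-coding gene between them. Its level was 8.24, 8.37 and 7.85 in Th2 cells and 8.06, 8.04 and 8.08 in Th9 cells. It was 6.91, 7.0 and 6.86 after stimulation and 6.26, 6.22 and 6.49 in Treg cells. The Th2 and Th9 arrays overlapped, the stimulated arrays lay below both and the Treg arrays lowest. Th9 cells exceeded Treg cells by 1.73 ± 0.13, or 3.33-fold (adjusted p = 1.34e-06), and Th2 cells by 1.83 ± 0.13 (adjusted p = 9.72e-07). After stimulation the difference was -1.13 ± 0.13, a fall of 2.19-fold (adjusted p = 2.56e-05). So Tnfrsf4 rose and its neighbour Tnfrsf18 fell on the same arrays. Between Th9 and Th2 cells the difference was -0.09 ± 0.13, with a 95% interval of -0.39 to 0.20 (adjusted p = 0.681).

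Tnfrsf8 encodes CD30 and covered the widest range of the 9 receptors. It was at 0.50, 0.42 and 0.26 in Th2 cells and at -0.15, 0.01 and 0.22 in Th9 cells. It was at -1.44, -1.06 and -0.64 after stimulation and measured -6.78, -6.18 and -6.06 on the Treg arrays, none of which was well above background. No groups overlapped. The folds against Treg cells are bounds, which set the brighter group's mean against the higher of the Treg signal and the lowest signal well above background on each Treg array. On that basis Th9 cells had an at least 63.4-fold higher signal than Treg cells. The bound was at least 81.9-fold higher for Th2 cells and at least 30.1-fold higher for stimulated Th9 cells. The bounds were not tested. The limma fit of the measured differences, with Treg signals not above background, gave adjusted p-values of 9.65e-09, 6.6e-09 and 1.09e-08 in the same order. These bounds hold only for the background correction used here. After normexp correction the Th9 minus Treg difference was 3.19 on the log2 scale, below the 5.99 of the bound. Stimulation lowered the level, with a difference of -1.07 ± 0.23 (adjusted p = 0.00161). Within slide 3, with 1 stimulated array, the difference was -0.66. The Th9 arrays were all below the Th2 arrays, but the difference of -0.37 ± 0.23 did not pass (adjusted p = 0.294; 95% interval -0.87 to 0.13).

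Cd27 was highest in Treg cells. Its level was 1.96, 1.85 and 1.84 in Th2 cells and 2.22, 2.18 and 1.90 in Th9 cells. In stimulated Th9 cells it was 2.91, 2.62 and 0.96, and in Treg cells 4.91, 5.02 and 5.31. The Treg arrays were above all others, and stimulated array 3 was below every other array while arrays 1 and 2 of its group were above every Th9 and Th2 array. Th9 cells were below Treg cells, with a difference of -2.98 ± 0.40 (adjusted p = 7.19e-05), as were Th2 cells, with -3.19 ± 0.40 (adjusted p = 4.26e-05). With slide as a block the difference between Th9 and Treg cells was -1.25 (adjusted p = 0.0055), and that between Th2 and Treg cells, which share slide 1, was -3.02. The B cell markers were high on the same Treg arrays, and their part in the result was not tested.

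For stimulation, Cd27 depended on 1 array. Over all arrays the difference was 0.06 ± 0.40 (adjusted p = 0.901; 95% interval -0.81 to 0.94). Without stimulated array 3 it was 0.67 and called higher (adjusted p = 0.00377). With slide as a block, where only array 3 shares a slide with Th9 cells, it was -1.14 and called lower (adjusted p = 0.00123). Array 3 was also the stimulated array with the lowest B cell markers and the lowest markers of CD8 T and NK cells. The part of these markers in the Cd27 level was not tested. Between Th9 and Th2 cells the difference was 0.22 ± 0.40 (adjusted p = 0.756), with a 95% interval of -0.66 to 1.09. It was 1.78 with slide as a block (adjusted p = 0.0347), an estimate that reaches from Th9 to Th2 arrays only through stimulated array 3 and the Treg arrays.

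**Figure D3:**
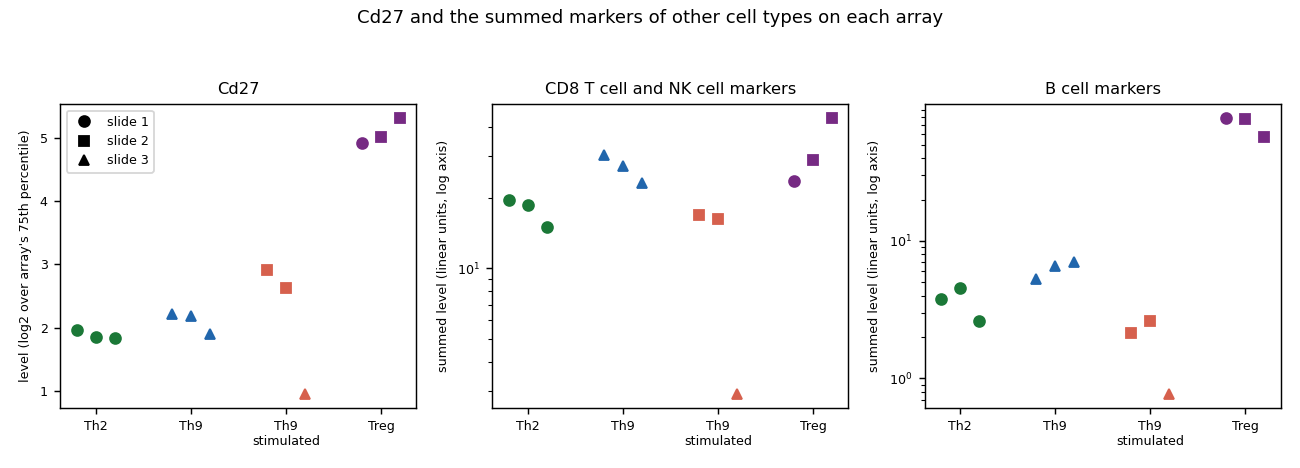
Cd27 level (left, log2), summed CD8 T cell and NK cell markers (middle) and summed B cell markers (right, both linear sums on a log axis) on each array. Colours give the group, symbols the slide, and each group shows arrays 1, 2 and 3 from left to right. Stimulated array 3, the lone triangle of its group, is lowest in each panel, at 0.96, 2.91 and 0.77. The Treg arrays are highest for Cd27 and the B cell markers.

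Tnfrsf25, the gene of DR3, was likewise highest in Treg cells. Its level was 4.23, 4.19 and 3.86 in Th2 cells and 3.54, 3.85 and 3.57 in Th9 cells. It was 3.02, 3.46 and 3.58 after stimulation and 5.02, 5.16 and 5.42 in Treg cells. The Treg arrays were above all others, and the Th9 and stimulated arrays overlapped. The difference between Th9 and Treg cells was -1.55 ± 0.17 (adjusted p = 2.16e-05) and that between Th2 and Treg cells -1.11 ± 0.17 (adjusted p = 0.000244). The second probe gave -1.89 and -1.57. After stimulation the difference of -0.30 ± 0.17 did not pass (adjusted p = 0.156). It was called lower at -0.59 after quantile normalization (adjusted p = 0.00699). When the percentile was taken over probes above background on all arrays it was called at -0.46 (adjusted p = 0.0311). The deposited log2 table gave -0.59 (adjusted p = 0.00699), but it appears to be quantile normalized and so is no separate scaling. Every Th9 array was below every Th2 array, with a difference of -0.44 ± 0.17 that did not pass (adjusted p = 0.111).

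Fas, the death receptor bound by Fas ligand, was highest in Treg cells and lowest in Th2 cells. Its RefSeq probe was at 1.93, 2.01 and 2.12 in Th2 cells and at 2.68, 2.50 and 2.44 in Th9 cells. It was at 2.63, 2.95 and 2.44 after stimulation and at 3.66, 3.74 and 3.78 in Treg cells. The 3 unstimulated groups did not overlap, and the stimulated arrays overlapped the Th9 arrays. Th9 cells were below Treg cells, with -1.19 ± 0.13 (adjusted p = 1.97e-05), and Th2 cells further below, with -1.71 ± 0.13 (adjusted p = 1.39e-06). The part of the B cell markers on the Treg arrays in these differences was not tested. Th9 cells were above Th2 cells by 0.52 ± 0.13, or 1.43-fold (adjusted p = 0.0231). That call was lost with slide as a block (0.77, adjusted p = 0.251), with the mean of both probes, and when any of the arrays 1 and 2 of Th2 cells or arrays 1 and 2 of Th9 cells was left out.

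The Fas probe of the cDNA clone departed from the RefSeq probe after stimulation. It was at -2.10, -2.72 and -2.65 in Th9 cells and at -0.08, -0.11 and -0.57 after stimulation, with no overlap. That is a rise of 2.23 ± 0.19, or 4.70-fold (adjusted p over probes = 2e-06). The RefSeq probe changed by 0.13 ± 0.13 (adjusted p = 0.402). In Th2 cells the clone probe was at -2.50, -2.44 and -2.80 and in Treg cells at -0.51, -0.44 and -0.59, so it was low in Th2 cells and higher in Treg cells, as the RefSeq probe was. Between Th9 and Treg cells the clone probe differed by -1.98 ± 0.19. Its Th9 and Th2 groups overlapped, with a difference of 0.09 ± 0.19 (adjusted p over probes = 0.787), where the RefSeq probe had 0.52 ± 0.13. The mean of both probes after stimulation was 1.18 higher (adjusted p = 3.27e-05). Whether the probes read the same transcripts was not tested, nor was the difference between them.

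**Figure D4:**
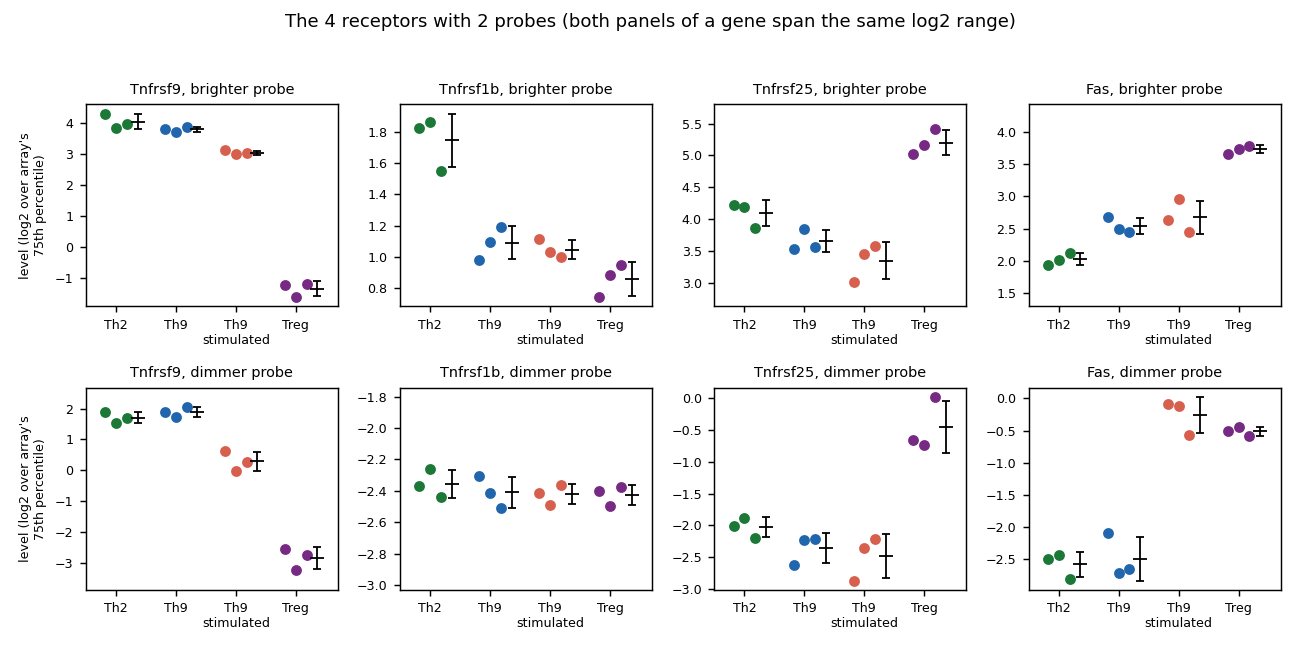
Levels of the brighter probe (top) and the dimmer probe (bottom) of the 4 receptors with 2 probes, on the 12 arrays. Points are arrays 1, 2 and 3, the bar is the mean ± SD, and both panels of a gene span the same log2 range. The probes of Tnfrsf9 and of Tnfrsf25 go the same way against Treg cells. On stimulation both Tnfrsf9 probes fall, and neither Tnfrsf25 probe passed. The dimmer Tnfrsf1b probe is flat, and the dimmer Fas probe rises by 2.23 on stimulation where the brighter one moves by 0.13.

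The receptors of TNF varied least, with ranges of 1.18 and 0.88 on the log2 scale between their highest and lowest group means. Tnfrsf1a encodes the death domain receptor that most cells carry. It was at 2.19, 2.27 and 2.27 in Th2 cells and at 2.23, 2.16 and 2.18 in Th9 cells. It was at 1.37, 1.60 and 1.48 after stimulation and at 2.44, 2.53 and 3.03 in Treg cells. The stimulated arrays were below all others and the Treg arrays above all others. Stimulation lowered Tnfrsf1a, with a difference of -0.71 ± 0.14, or 1.63-fold (adjusted p = 0.00119). Th9 cells were below Treg cells by a difference of -0.47 ± 0.14 (adjusted p = 0.0137), a call lost with slide as a block (-0.59, adjusted p = 0.102), and without Treg array 3 it was -0.29. Th2 cells were below them by a difference of -0.42 ± 0.14 (adjusted p = 0.0244). That call was lost with slide as a block (-0.19, adjusted p = 0.429), with the Th2 and Treg arrays alone in the fit, and when Th2 array 1, Th2 array 2 or Treg array 3 was left out. Th9 and Th2 cells overlapped, with a difference of -0.05 ± 0.14 (adjusted p = 0.842; 95% interval -0.37 to 0.26).

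Tnfrsf1b, the TNF receptor without a death domain that is found mainly on immune cells, was highest in Th2 cells. Its brighter probe was at 1.83, 1.86 and 1.55 in Th2 cells and at 0.98, 1.1 and 1.19 in Th9 cells. It was at 1.11, 1.03 and 1.00 after stimulation and at 0.74, 0.89 and 0.95 in Treg cells. The Th2 arrays were above all others, and the stimulated arrays overlapped the Th9 arrays. The difference between Th9 and Th2 cells was -0.65 ± 0.11 (adjusted p = 0.00335), a call lost with slide as a block (-0.75, adjusted p = 0.238). Th2 cells exceeded Treg cells by 0.88 ± 0.11, or 1.84-fold (adjusted p = 4.85e-05). The dimmer probe had group means between -2.42 and -2.36 and passed in no comparison. With the mean of both probes the Th2 minus Treg difference was 0.48. Neither the Th9 minus Treg difference of 0.23 ± 0.11 (adjusted p = 0.0919) nor the change of -0.04 ± 0.11 on stimulation (adjusted p = 0.753) passed.

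The order of the group means divided the list. For Tnfrsf9, Tnfrsf18 and Tnfrsf8 it ran Th2, Th9, stimulated Th9, Treg, and each step passed except that from Th2 to Th9. For Tnfrsf4 it ran stimulated Th9, Th9, Th2, Treg, and again only the step between Th9 and Th2 did not pass. For Cd27 and Fas it ran Treg, stimulated Th9, Th9, Th2. For Cd27 only the first step passed, and for Fas only the step from stimulated Th9 to Th9 did not. For Tnfrsf1a and Tnfrsf25 it ran Treg, Th2, Th9, stimulated Th9. The step from Th2 to Th9 passed for neither, although for Tnfrsf25 those groups did not overlap, and the step from Th9 to stimulated Th9 did not pass for Tnfrsf25. For Tnfrsf1b it ran Th2, Th9, stimulated Th9, Treg, and only the first step passed.

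Over the 12 arrays Tnfrsf9 and Tnfrsf8 had a Pearson correlation of 0.993, Tnfrsf4 and Tnfrsf9 of 0.934, Cd27 and Fas of 0.919 and Tnfrsf8 and Cd27 of -0.950. The arrays form 4 groups on shared slides, so these values describe mostly the group means. By the same measure the genes most like a member, among 8941 genes with a range of at least 1, were listed for each. Ero1a, an endoplasmic reticulum oxidase, was among the 3 genes nearest to both Tnfrsf8 (0.996) and Tnfrsf9 (0.995). Cyp11a1, the first enzyme of steroid synthesis, was nearest to Tnfrsf9 (0.996). Il24, a cytokine gene, and Rbpj, the DNA-binding factor of Notch signalling, were among those nearest to Tnfrsf4 (0.995 each). Pfkfb3, a regulator of glycolysis, was nearest to Tnfrsf18 (0.996). Ifi205, an interferon-inducible gene, was nearest to Cd27 (0.991), and Tlr7, an RNA sensor that B cells and myeloid cells express, was nearest to Fas (0.985).

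On the genome, 6 of the 9 members lie on chromosome 4, 2 (Cd27 and Tnfrsf1a) on chromosome 6 and 1 (Fas) on chromosome 19. Tnfrsf8 and Tnfrsf1b are neighbours with no protein-coding gene between them, as Tnfrsf4 and Tnfrsf18 are, and 3 such genes separate Cd27 from Tnfrsf1a. Neighbours did not share a pattern in every comparison: on stimulation Tnfrsf4 was called higher, at 0.60, and Tnfrsf18 lower, at -1.13. Between Th9 and Treg cells Tnfrsf8 was called and its neighbour Tnfrsf1b, at 0.23, was not, but the difference between these genes was not tested. Cd27 and Tnfrsf1a, which are not adjacent, were not told apart on stimulation. The Cd27 interval of -0.81 to 0.94 held the -0.71 of Tnfrsf1a.

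The counts of related genes below stand beside those of all genes tested. On stimulation 33.2% of all genes were higher and 30.5% lower, with a median of 0.02. Th9 cells had 28.8% higher and 35.3% lower than Treg cells, with a median of -0.11, and Th2 cells 29.3% and 33.5%, with a median of -0.08. Th9 cells against Th2 cells had 7.76% higher and 9.25% lower, with a median of -0.03. With slide as a block, Cd40 alone among the genes of these 5 lists was called between Th9 and Th2 cells, and no slide held both groups.

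Of 8 ligands of the 9 receptors tested, 5 were higher and 0 lower on stimulation, with a median of 1.34, and without stimulated array 3 the counts were 4 and 0. Tnf, the inflammatory cytokine, was higher by 3.16 ± 0.38 (adjusted p = 2.67e-05), Tnfsf4, the OX40 ligand, by 2.76 ± 0.33 (adjusted p = 2.63e-05) and Tnfsf8, the CD30 ligand, by 2.38 ± 0.17 (adjusted p = 6.9e-07). So the CD30 ligand rose while CD30 fell, and the OX40 ligand and OX40 both rose. Between Th9 and Th2 cells 1 ligand was higher and 1 lower. Fasl, which encodes Fas ligand, was higher by 2.10 ± 0.37 (adjusted p = 0.00413) and Lta, lymphotoxin, lower with -1.09 ± 0.23 (adjusted p = 0.0109), and both calls were lost with slide as a block, where the differences were 2.25 (adjusted p = 0.158) and -0.07 (adjusted p = 0.977). Against Treg cells 2 ligands were higher and 1 lower in Th9 cells, and 3 higher and 2 lower in Th2 cells. With slide as a block the counts were 3 higher and 0 lower in each of these comparisons. Tnfsf9, the ligand of CD137, was above its Treg level in Th9 cells by 0.98 ± 0.16 (adjusted p = 0.00025).

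Of 16 adaptors and regulators that act behind these receptors, Th9 cells had 9 lower and 5 higher than Treg cells, with a median of -0.31. Over all genes tested 35.3% were lower and 28.8% higher, with a median of -0.11. Traf5, an adaptor of OX40, CD27 and CD30, had a difference of -2.40 ± 0.11 (adjusted p = 3.87e-08). Traf1, an adaptor of CD137 and CD30 that is itself an NF-κB target, had -1.72 ± 0.16 (adjusted p = 5.67e-06). Traf6 was higher by 1.49 ± 0.11 (adjusted p = 1.01e-06). The B cell markers were high on the same Treg arrays, and their part in these differences was not tested. Th2 cells had 6 adaptors lower and 3 higher than Treg cells. On stimulation 6 rose and 4 fell (5 and 3 without stimulated array 3), among them Cyld, a deubiquitinase that limits NF-κB, with -1.74 ± 0.11 (adjusted p = 3.85e-07). Th9 cells had 3 higher and 2 lower than Th2 cells, and 0 and 0 with slide as a block. With that block the counts were 3 higher and 7 lower against Treg cells in Th9 cells, and 4 and 2 on stimulation.

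Of 13 NF-κB pathway genes, 7 rose and 3 fell on stimulation, with and without stimulated array 3, with a median of 0.56 over all arrays. Among all genes tested 33.2% rose and 30.5% fell. Nfkb2, a precursor subunit of the alternative pathway, rose by 2.10 ± 0.13 (adjusted p = 3.35e-07), and Nfkbie, an inhibitor of NF-κB, by 1.73 ± 0.12 (adjusted p = 6.95e-07). Bcl3, an atypical inhibitor family member, had -1.68 ± 0.14 (adjusted p = 1.71e-06). Against Treg cells 6 were lower and 3 higher in Th9 cells, and 9 lower and 3 higher in Th2 cells. The shares over all genes were 35.3% lower and 28.8% higher for Th9 cells, and 33.5% and 29.3% for Th2 cells. Nfkbie was lower in Th9 cells, with -1.89 ± 0.12 (adjusted p = 4.14e-07). With slide as a block the Th9 counts against Treg cells were 3 lower and 2 higher. Th9 cells had 3 higher and 0 lower than Th2 cells, and 0 and 0 with that block. Among these Map3k14, the kinase NIK, was higher by 0.93 ± 0.10 (adjusted p = 0.000223), and by 0.86 with slide as a block (adjusted p = 0.155).

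Of 16 other TNF receptor superfamily genes tested, 6 rose and 1 fell on stimulation, and 7 and 1 without stimulated array 3. With all arrays the share that rose was near the 33.2% of all genes tested, of which 30.5% fell. The 6 include Eda2r, which was well above background on the 3 stimulated arrays and on 0 of the other arrays. Tnfrsf10b, a receptor of TRAIL, rose by 2.16 ± 0.18 (adjusted p = 1.93e-06). Against Treg cells 5 were higher and 4 lower in Th9 cells, and 6 higher and 4 lower in Th2 cells, where Eda2r, again among the higher, was not well above background in either group. Others among the higher were well above background on 0 Treg arrays: Tnfrsf23 in both comparisons, Tnfrsf19 for Th9 and Tnfrsf11b for Th2 cells. The bound for Tnfrsf19 in Th9 cells was only 1.13-fold. With slide as a block the Th9 counts were 4 and 2. Tnfrsf13c, the BAFF receptor of B cells, was lower in Th9 cells, with -3.83 ± 0.40 (adjusted p = 1.16e-05), and was highest on the Treg arrays that held the B cell markers, whose part was not tested. Th9 cells had 1 higher and 2 lower than Th2 cells. The higher one, Cd40, lost its call after normexp correction (adjusted p = 0.0573). The lower ones, Eda2r, which no Th9 or Th2 array measured well above background, and Tnfrsf12a, lost theirs with slide as a block (adjusted p = 0.0737 and 0.236). In the CD28 family of 5 receptors 3 rose and 0 fell on stimulation. Pdcd1, the gene of the inhibitory receptor PD-1, rose by 3.88 ± 0.12 (adjusted p = 2.41e-08) and Btla, another inhibitory receptor, by 2.74 ± 0.15 (adjusted p = 1.49e-07). The third, Cd28, was higher by 0.47 ± 0.18 (adjusted p = 0.0438), a call lost in 12 of 17 alternatives, among them quantile normalization (adjusted p = 0.164) and the mean of its probes (0.14, adjusted p = 0.517), with values of 0.14 to 0.47 in the 12. In Th9 cells Btla was below its Treg level, with -2.12 ± 0.15 (adjusted p = 6.64e-07), where 2 of the 5 were higher and 2 lower. With slide as a block 0 were higher and 2 lower. One of the higher, Ctla4, an inhibitory receptor, had 0.83 ± 0.32 (adjusted p = 0.0393) with overlapping groups, and lost its call in 7 of 17 alternatives, among them slide as a block (0.38, adjusted p = 0.664). Th9 cells had 0 higher and 2 lower than Th2 cells, and both calls were lost with slide as a block, Btla with -1.64 (adjusted p = 0.0737) and Pdcd1 with -0.16 (adjusted p = 0.899). The Pdcd1 call was lost in 9 of 17 alternatives, each run without 1 array among them. Th2 cells had 0 higher and 2 lower than Treg cells, of which Btla lost its call with slide as a block (-0.48, adjusted p = 0.111).

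**Figure D5:**
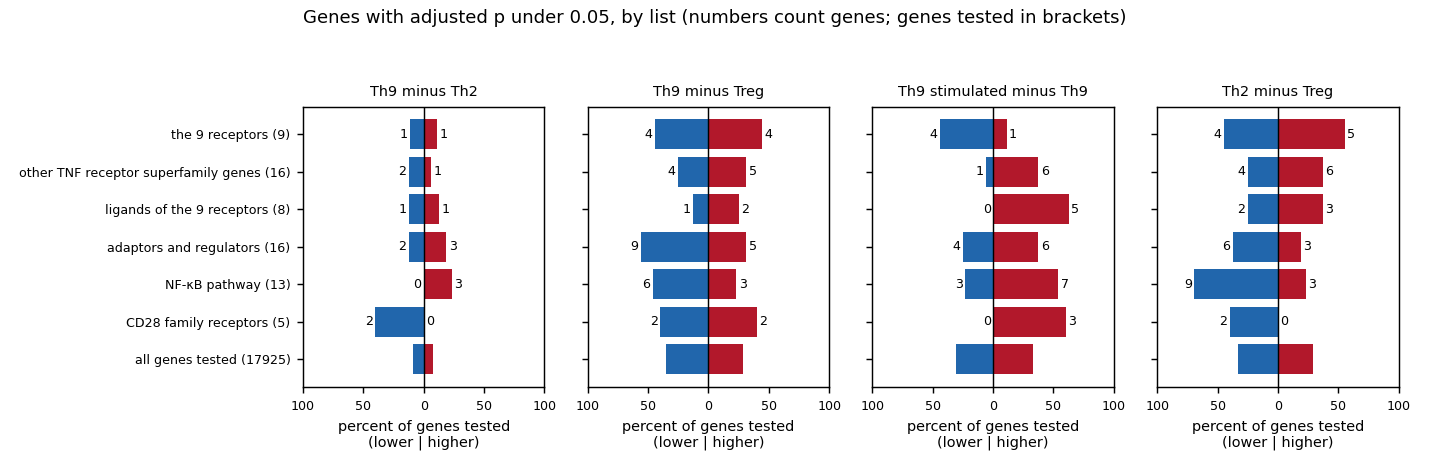
Share of the genes tested in each list that were higher (right, red) or lower (left, blue) at an adjusted p under 0.05, in 4 comparisons. Numbers beside the bars count genes and brackets give the genes tested. After stimulation 5 of 8 ligands and 3 of 5 CD28 family genes were higher and 0 lower, while 4 of the 9 receptors were lower. The bottom bar is the share over all genes tested.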

How the data were processed

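The authors' scanner files hold spot intensity on a linear scale from Agilent Feature Extraction 10.5.1.1, background subtracted and spatially detrended per the file headers. The deposited series table holds log2 values, quantile normalized as judged from the values. Its processing is not given in the sources used here. It correlated with the processed signal at 0.9996 or above, had 83 missing values and served as an alternative. RNA (0.5 µg) was labelled with Cy3, per the labels' protocols.

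Control and outlier spots (60 to 94 per array) were left out, and spots of a probe averaged. Log2 signal minus each array's 75th percentile was fitted over all 12 arrays with limma 3.58.1 in R 4.3.3 (8 residual degrees of freedom), for probes above background on at least 3 arrays. Where a gene had several probes, the one with the highest mean stood for it. P-values were adjusted by Benjamini-Hochberg over all genes, or over all 27130 probes for probe values. The fit was tested on simulated data. Members and lists were chosen with earlier results of these data known. From each list, up to 3 called genes with the largest difference per comparison could be named, and only some are. Deviations of same-numbered Th9 and Th2 arrays from their group means correlated at 0.20, 0.18 and 0.41. The values were 0.21, 0.11 and 0.095 for stimulated Th9 and Th9 arrays, and 0.05, 0.14 and 0.12 for Th9 and Treg arrays. For Th2 and Treg arrays they were 0.02, 0.02 and -0.01. The labels give no pairing. Differently numbered arrays were not compared, so a pairing by number was not tested.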

Additional observations from a re-analysis of the deposited data

How the results depend on the processing

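All settings were listed with earlier results known. Of 612 values of a receptor in a comparison under an alternative, 576 kept their direction and side of the threshold, 13 lost the call, 6 gained one and 17 turned sign. The calls of Tnfrsf4, Tnfrsf9, Tnfrsf18 and Tnfrsf8 against Treg cells and after stimulation held in every alternative run. After normexp correction the Tnfrsf8 difference from Treg cells was 3.19 in Th9 cells. Slide as a fixed block gave 317 calls over all genes between Th9 and Th2 cells in place of 3049, 206 of them shared in direction, and 6685 between Th9 and Treg cells in place of 11474, 6299 of them shared. Leaving out 1 array gave 1818 to 2752 calls between Th9 and Th2 cells. Called receptors there fell from 2 to 1 with the mean of probes (Tnfrsf1b kept) and with the slide block (Cd27 in place of Fas and Tnfrsf1b), and ranged from 1 to 2 without 1 array. The replicate block gave 3085 calls between Th9 and Th2 cells and changed no call of a receptor. The median over all genes after stimulation, 0.02, was 0.12 with normexp and -0.14 with the percentile over probes above background on all arrays.

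Differences that turned sign were small or concerned Cd27. After stimulation Cd27 was -0.13 with quantile normalization, -0.093 with that percentile, -0.13 in the deposited table and -1.14 with the slide block, and Fas was -0.11, -0.023, -0.12 and -0.10 in the same settings. Leaving out 1 array at a time, Cd27 ranged from -0.31 to 0.67, Fas from -0.0052 to 0.25 and Tnfrsf1b from -0.098 to 0.0079. Between Th9 and Th2 cells Tnfrsf4 ranged from -0.12 to 0.094 and Tnfrsf18 from -0.24 to 0.013. The causes were not tested. With 3 arrays a group and 1 array linking the slides of some groups, small differences are not resolved.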
